A study of Rattus norvegicus with 12 samples.

Results

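MiR-22 is a microRNA (miRNA) made from 1 short hairpin whose strands are both listed in the data, miR-22-3p (rno-miR-22-3p) from the 3′ arm and miR-22-5p (rno-miR-22-5p) from the 5′ arm. They were taken by name, as 2 of the 641 mature rat miRNAs measured by small RNA sequencing of aorta. The samples came from female rats of the spontaneously hypertensive (SHR) strain, in which blood pressure rises with no surgery or drug. Saline was the treatment of the 6 control samples, and EWH is the treatment label of the other 6, in a series titled after peptides from egg white. All 12 samples share strain, sex and tissue, and no age, dose or time is used here. Whether the 6 samples of a group are 6 animals is not stated in the labels, so the spread and the p-values given here are those between samples and may be technical.

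The miR-22 hairpin was picked with the difference between EWH and control already known, since miR-22-3p was among the miRNAs with the lowest moderated t of the series. The differences of both arms and of their ratio between the groups are therefore described here, and no test of them is offered as support.

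A miRNA hairpin is cut by Dicer into a duplex of its arms, of which 1 is usually kept as the guide in an Argonaute protein while the other is mostly degraded. The guide finds messenger RNAs mainly through its seed, the bases near its 5′ end. MiR-22-3p is the usual guide of this hairpin, is abundant in heart and other muscle, and is known from work on vascular smooth muscle as a miRNA that favours the contractile state.

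The sequences below, from RefSeq with the build GRCr8, show why the arms are counted apart: their seeds differ although they come from 1 hairpin. In the hairpin the capitals mark the 5p arm (bases 19 to 40 of 95) and then the 3p arm (bases 57 to 78), and in the mature miRNAs they mark the seed, bases 2 to 8.
Mir22 hairpin: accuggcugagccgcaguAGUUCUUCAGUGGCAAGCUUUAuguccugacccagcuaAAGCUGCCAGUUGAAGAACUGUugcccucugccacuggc
miR-22-5p: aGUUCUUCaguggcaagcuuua
miR-22-3p: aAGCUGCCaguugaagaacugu

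Both arms are 22 bases long. In the fold of lowest predicted energy, 19 bases of the 5p arm pair with bases of the 3p arm, 18 of them as Watson-Crick pairs and 1 as a G:U pair, and 16 bases lie between the arms. No other of the 693 mature rat names in the RefSeq table has either seed, also when the seed is shortened to bases 2 to 7. The most similar other mature sequence lay 9 single-base edits from miR-22-3p (miR-152-3p) and 8 from miR-22-5p (miR-216a-5p). No other hairpin of that table overlaps Mir22, which lies on chromosome 10 between the protein-coding genes Wdr81 and Tlcd2, with no listed gene spanning it. The files' own build is rn6, so no coordinates of the other build are given.

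Levels are in reads per 1000000 reads (rpm) of the library total chosen by the authors, and those totals were 23887799 to 24772944 reads. Between 76.4% and 80.6% of them fell in the listed miRNAs. MiR-22-3p was read 80718 to 133429 times in a library and miR-22-5p 7800 to 13333 times. Counting alone would give a coefficient of variation of at most 0.352% for miR-22-3p and 1.13% for miR-22-5p. Between samples of 1 group the coefficient of variation was 8.39% and 10.1% for miR-22-3p, and 15.3% and 9.78% for miR-22-5p (control and EWH, n = 6 each). No molecular identifiers are described for the reads, so counting errors are lower limits.

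MiR-22-3p was the 20th most abundant of the 303 tested miRNAs, those that reached 1 rpm in 6 or more of the 12 libraries. Its place among all listed miRNAs ran from 17 (control 2) to 22 (EWH 2). On the scale of mean rpm it stood below miR-100-5p (5242 rpm) and the endothelial miR-126a-3p (5535 rpm), and above miR-30d-5p (3911 rpm) and miR-3596a (3822 rpm). MiR-22-5p held the 56th place, between miR-423-3p (402 rpm) and miR-196b-5p (390 rpm), with a mean of 402 rpm. The arms varied less than most tested miRNAs: the within-group SD of log2(rpm + 1) was 0.14 for miR-22-3p (18th smallest of 303) and 0.18 for miR-22-5p (48th smallest), beside a median of 0.33. Among the 90 tested miRNAs averaging at least 100 rpm, where low counts weigh less, they were 10th and 23rd smallest, beside a median of 0.27.

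In the 12 libraries miR-22-3p lay lower in EWH than in control on average, and miR-22-5p lay lower by a similar share. MiR-22-3p averaged 4857 ± 408 rpm among controls and 4029 ± 409 rpm among EWH libraries (SD, n = 6 each), a mean 17.0% below control. MiR-22-5p averaged 430 ± 65.7 rpm among controls and 373 ± 36.5 rpm among EWH libraries (SD, n = 6 each), a mean 13.2% below control. In bulk tissue, fewer cells that hold miR-22 and less miR-22 per cell cannot be told apart.

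The control libraries read, for miR-22-3p, 5420 (control 1), 4904 (control 2), 4370 (control 3), 4405 (control 4), 5112 (control 5) and 4928 rpm (control 6). The EWH libraries read 4466 (EWH 1), 3258 (EWH 2), 4086 (EWH 3), 4234 (EWH 4), 4101 (EWH 5) and 4028 rpm (EWH 6). Of the 6 EWH libraries, 5 lay below each control, and EWH 1 lay just above controls 3 and 4, so the groups overlapped only there. At least 5 of 6 EWH libraries lay below each control for 11 of the 303 tested miRNAs, or 3.63%, and all 6 did for 4, or 1.32%. EWH 2 stood apart at the bottom of its group, and without it the EWH mean was 4183 ± 175 rpm (SD, n = 5).

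The 5p arm, the strand that is usually discarded, read 542 (control 1), 407 (control 2), 350 (control 3), 392 (control 4), 433 (control 5) and 456 rpm (control 6). In EWH it read 419 (EWH 1), 315 (EWH 2), 382 (EWH 3), 377 (EWH 4), 350 (EWH 5) and 396 rpm (EWH 6). Here the groups overlapped widely: 1 EWH library lay below each control, and 3 controls lay above each EWH library. Control 1 was highest and EWH 2 lowest in both arms. Without control 1 the control mean of miR-22-5p was 407 ± 40.5 rpm, and without EWH 2 the EWH mean was 385 ± 25.4 rpm (SD, n = 5 each).

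**Figure D1:**
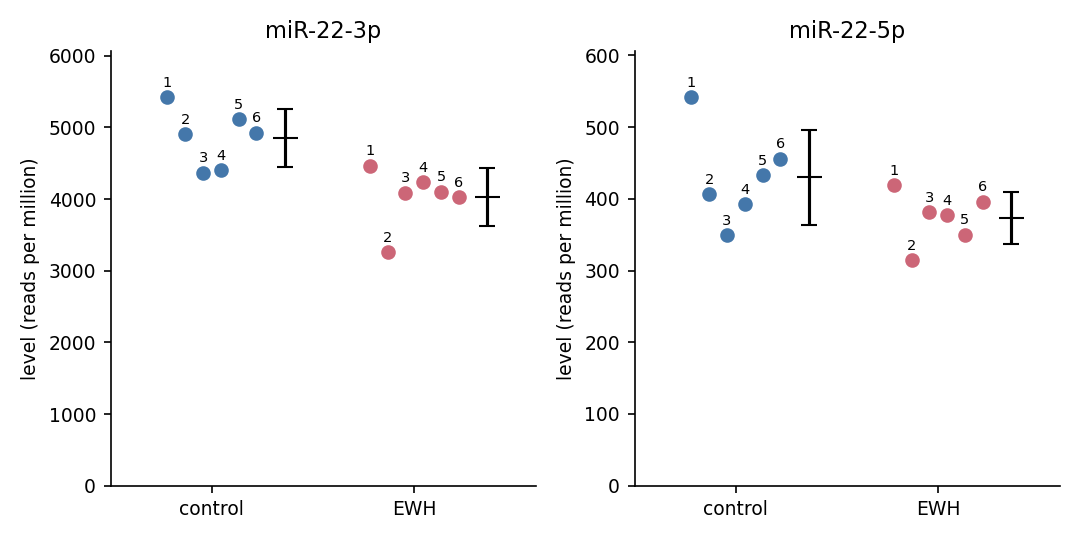
Levels of miR-22-3p (left) and miR-22-5p (right) in rpm in each control and EWH library; numbers are replicate numbers, and the bars give mean ± SD (n = 6 each). For miR-22-3p the EWH libraries other than EWH 1 (4466 rpm) lie below the lowest control (4370 rpm), while for miR-22-5p the groups overlap between 350 and 419 rpm.

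On the log2(rpm + 1) scale, EWH minus control was −0.27 (SE 0.09) for miR-22-3p and −0.20 (SE 0.11) for miR-22-5p in limma's fit over all 303 tested miRNAs. These were the 57th and the 94th lowest differences, in a table where the median difference was −0.06 and 182 miRNAs were lower in EWH. Limma with Benjamini-Hochberg adjustment called neither arm, and it called 0% of the tested miRNAs at an adjusted p under 0.05. Without adjustment, 70 miRNAs lay under a limma p of 0.05, and 24 of them, or 7.92% of the tested, were lower in EWH. On recovered whole reads, edgeR's quasi-likelihood test called neither arm but 40 miRNAs (13.2% of the tested, 1.98% called lower). DESeq2 called 63 (20.8%, with 5.61% called lower), among them miR-22-3p at −0.23 log2 and not miR-22-5p. As the contrast chose the hairpin, nothing is read from these counts.

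The denominator of the values decided whether the groups of miR-22-3p overlapped. The smooth muscle miRNA miR-143-3p alone held 42.3% (EWH 4) to 54.1% (control 2) of the listed reads. With the reads in listed miRNAs as the denominator (per 1000000 of them), miR-22-3p averaged 6213 ± 535 among controls and 5081 ± 521 among EWH libraries (SD, n = 6 each). Under it all 6 EWH libraries lay below all 6 controls. The same held for 7 of the 303 tested miRNAs, or 2.31%, with these values. With miR-143-3p also left out of the denominator, the EWH mean was 21.6% below control, and the log2 difference was −0.35 (SE 0.08). The median difference of all tested miRNAs was then −0.14. Here 5 of 6 EWH libraries lay below each control. All 6, a stricter condition that miR-22-3p did not meet here, did so for 2.64% of the tested miRNAs. Under median-of-ratios scaling, which sets libraries level on their typical miRNA, the EWH mean was 14.9% below control. There EWH 4 was lowest, at 3545, and EWH 2 read 4220, inside the range of its group, while EWH 1 at 4762 lay above all but 3 of the controls. Under that scaling 5 of 6 EWH libraries lay below each control for miR-22-3p. All 6, again the stricter condition, did so for 1.65% of the tested miRNAs. The share with at least 5 of 6 was not counted under either of these denominators.

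**Figure D2:**
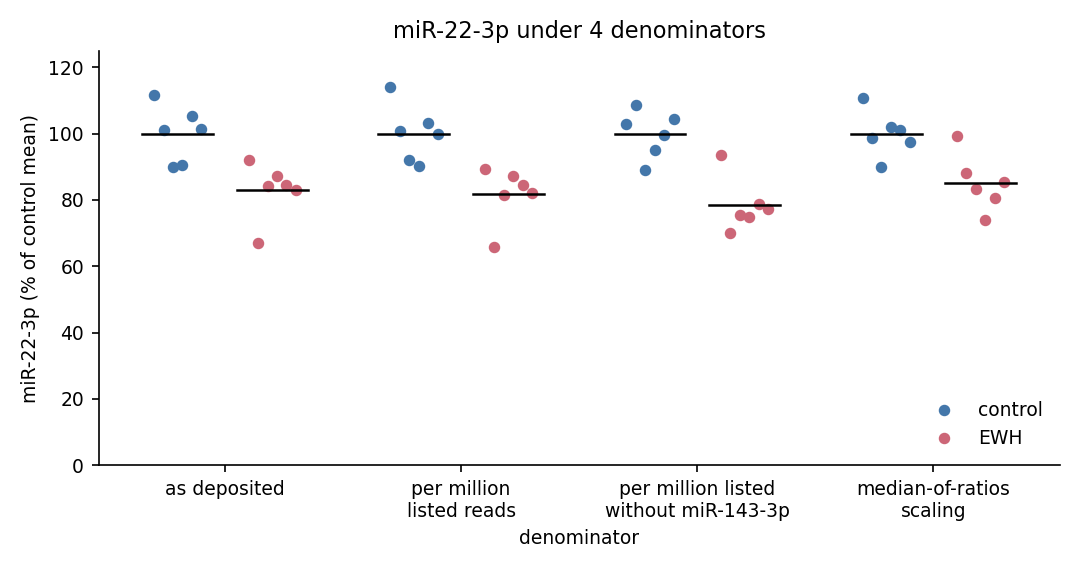
MiR-22-3p in each library as a percentage of the control mean under 4 denominators; points are the 6 control and 6 EWH libraries and black lines are group means. The EWH means lie 14.9% to 21.6% below control, and of the 4 denominators only the listed reads set the groups apart.

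The balance of the arms varied little between libraries. Per library the 5p arm made up 7.41% to 9.08% of the reads of both arms in control, with a mean of 8.10% ± 0.611, and 7.87% to 8.95% in EWH, with a mean of 8.49% ± 0.401 (SD, n = 6 each). In control 3, the lowest, the 95% Wilson interval was 7.26% to 7.56%, and in control 1, the highest, it was 8.94% to 9.23%. These intervals cover counting error only, and the libraries differed by more than that. Each library held 10.01 (control 1) to 12.5 (control 3) times as many rpm of miR-22-3p as of miR-22-5p, so the 3p arm was higher in all 12.

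In log2((5p + 1)/(3p + 1)) the ratio averaged −3.50 ± 0.12 among controls and −3.43 ± 0.08 among EWH libraries (SD, n = 6 each). All but 1 of the EWH libraries lay above the control median in 5p share, and 3 of 6 controls (2, 3 and 5) lay below the lowest EWH library. Control 1 lay above the highest, so the groups overlapped. EWH minus control was 0.08 (SE 0.10) on the log2 scale in limma's fit over the 67 hairpins with both arms tested, beside a median of 0.04 over those hairpins. Limma with Benjamini-Hochberg adjustment called 0% of these ratios, with 13 at an unadjusted p under 0.05. For 18 of the 67 hairpins the difference was smaller in size than for miR-22.

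Of the 67 hairpins, 24 had more of the 3p arm and 43 more of the 5p arm, and miR-22 had the 11th lowest ratio of 5p to 3p. Its neighbours in that order were miR-455 (−4.08) and miR-674 (−4.60) below, and miR-708 (−3.09) and miR-378a (−2.98) above, as mean log2 ratios. Counting both directions, 26 hairpins were more skewed toward 1 arm. The within-group SD of the ratio was 0.098 for miR-22, the smallest of the 67, beside 0.11 for the next (miR-30d) and a median of 0.25. In low miRNAs this SD also holds counting error and the pseudocount. Among the 9 hairpins whose arms both averaged at least 100 rpm, miR-22 was again the steadiest, with miR-30a next at 0.17 and a median of 0.20. These places in the order are descriptions of these 12 libraries.

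**Figure D3:**
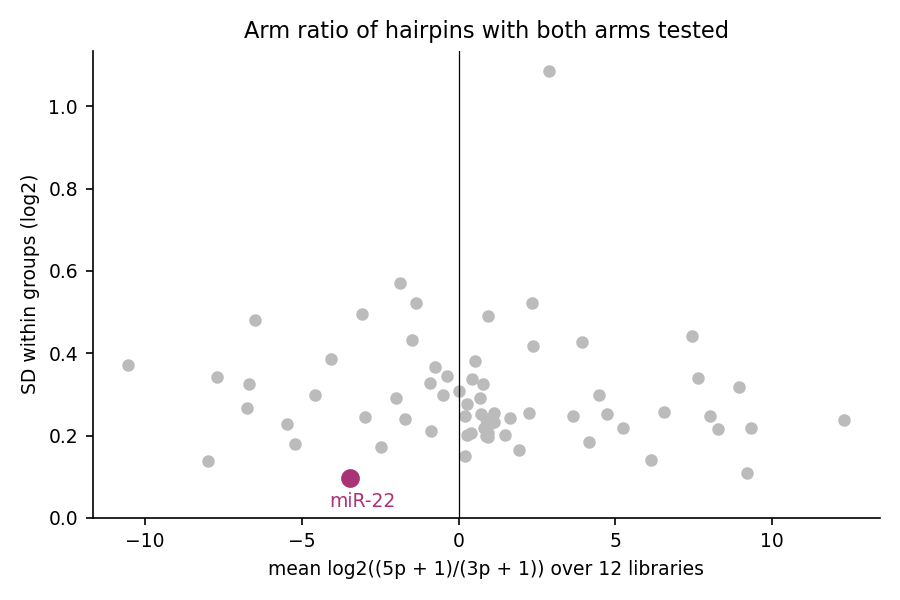
Each point is 1 of 67 hairpins with both arms tested: mean log2((5p + 1)/(3p + 1)) over 12 libraries against its SD within groups. MiR-22, marked, lies toward the 3p arm at −3.47 with the smallest SD of the 67, at 0.098.

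Between libraries the arms were high and low in much the same samples. On log2(rpm + 1) values Pearson's r was 0.87 and Spearman's rho 0.82 over the 12 libraries. Within control r was 0.90 and rho 0.94, and within EWH r was 0.88 but rho 0.49 (6 libraries each). Without control 1 and EWH 2, the libraries farthest from the median of miR-22-3p, r was 0.72 over 10 libraries. These values are descriptions with no test, since the hairpin was picked with the difference of miR-22-3p between the groups known. Both arms of a library share its denominator, and the median r between arms over the 67 hairpins was 0.58, so a positive r was common. MiR-22 had the 19th highest r of the 67, and place 7 among the 31 hairpins with both arms averaging at least 10 rpm.

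**Figure D4:**
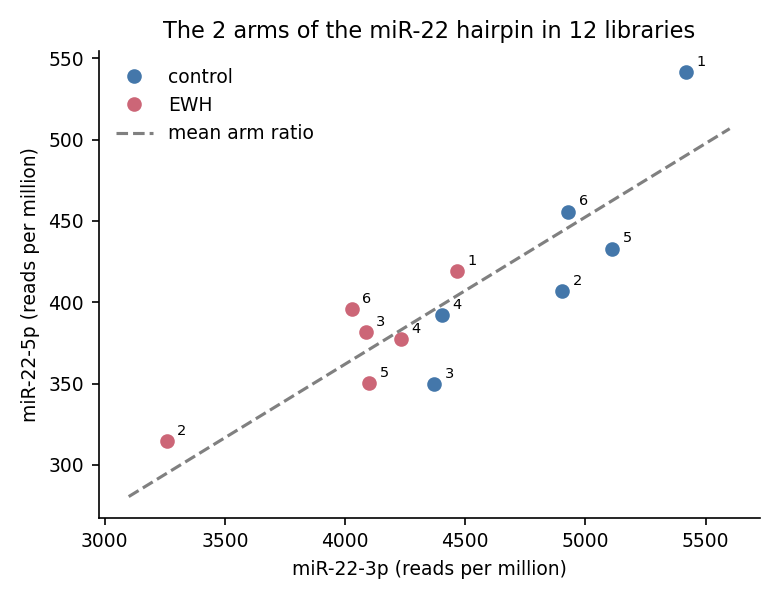
MiR-22-5p against miR-22-3p in rpm; each point is a library with its replicate number, and the dashed line is the mean arm ratio. The libraries follow the line from EWH 2 (3258 and 315 rpm) to control 1 (5420 and 542 rpm).

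Among the 182 other tested miRNAs averaging at least 10 rpm, the pattern most like that of miR-22-3p over the 12 libraries was that of its own 5p arm. Next by Pearson's r of log2(rpm + 1) came miR-29a-3p (0.85), which targets collagen messages, then miR-186-5p (0.84), miR-374-5p (0.83) and miR-221-3p (0.82), a miRNA of proliferating smooth muscle. EWH 2 was lowest of all libraries in each of these, and without it r was 0.76, 0.75, 0.62 and 0.60 in that order, against 0.83 for the 5p arm. With group means subtracted, r stayed high for miR-22-5p (0.85), and miR-221-3p (0.76), miR-872-5p (0.75), miR-191a-5p (0.74) and miR-29a-3p (0.74) followed. All these miRNAs share the library and its denominator, and the values of r are descriptions.

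For 4 of these, values in rpm are given beside those of miR-22-3p. The 4 were ranked by r over both groups with a miRNA picked with its lower level in EWH known. Lower means in EWH were therefore favoured by that choice. MiR-29a-3p averaged 709 ± 112 rpm among controls and 568 ± 68.8 rpm among EWH libraries, and miR-221-3p averaged 375 ± 73.1 and 293 ± 71.9 rpm (SD, n = 6 each), each with overlapping groups. MiR-186-5p averaged 248 ± 8.07 rpm among controls and 213 ± 17.6 rpm among EWH libraries (SD, n = 6 each), with no overlap. In rpm, every EWH library lay below every control for 1.32% of the tested miRNAs. MiR-374-5p averaged 88.1 ± 5.46 and 73.0 ± 12.6 rpm (SD, n = 6 each), with overlap.

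**Figure D5:**
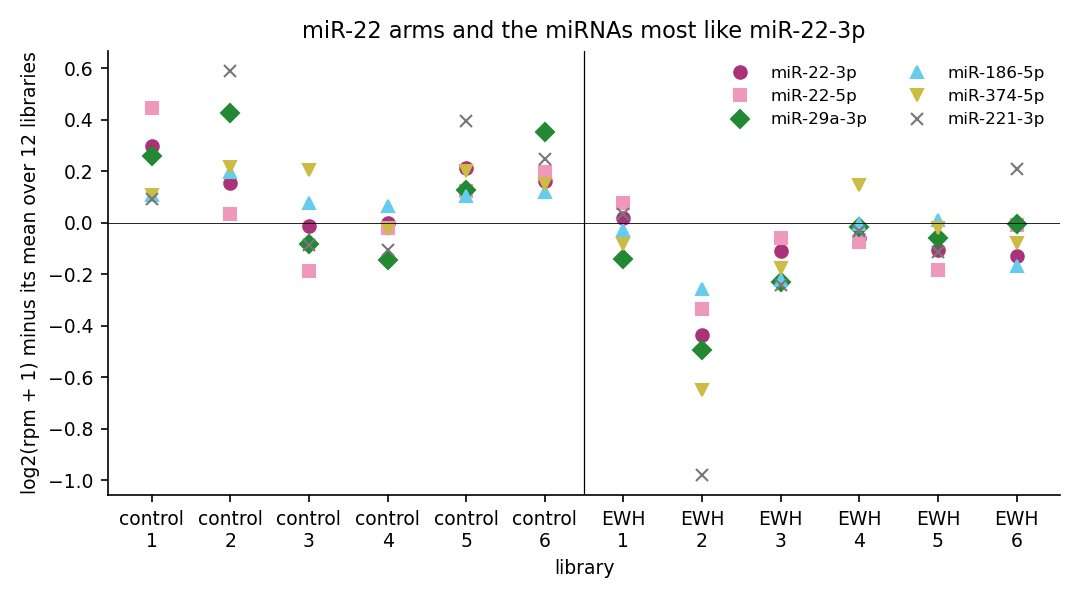
Log2(rpm + 1) of both miR-22 arms and of the 4 other miRNAs most like miR-22-3p, each minus its own mean over the 12 libraries, by library. EWH 2 lies lowest for all 6, from −0.26 for miR-186-5p to −0.98 for miR-221-3p.

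Beyond the arms themselves, the list of miRNAs most like miR-22-5p over the 12 libraries shared only miR-29a-3p with that of miR-22-3p. It held miR-3074 (0.75), miR-3588 (0.74), miR-29a-3p (0.72) and miR-499-5p (0.72), the last a miRNA of an intron of a cardiac and slow muscle myosin gene. With group means subtracted, miR-872-5p (0.73), miR-3074 (0.70), let-7b-3p (0.67) and miR-3588 (0.64) followed the 3p arm. Of these, only miR-872-5p was also in the list of miR-22-3p. By RefSeq's table the hairpin of miR-3074 overlaps Mir24-1 and that of miR-3588 overlaps Mir125b2, so their reads may belong to these. MiR-499-5p averaged 262 ± 133 rpm among controls and 157 ± 29.1 rpm among EWH libraries (SD, n = 6 each), a log2 difference of −0.60 (SE 0.29).

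The listed miRNAs of the nearest hairpins on chromosome 10 all averaged below miR-22-3p, while miR-423-3p lay level with miR-22-5p (402 rpm each). On the one side is Mir6326, whose mature miRNA is not listed in the data, and then the angiotensin-responsive Mir132 and Mir212. MiR-132-3p averaged 3.61 ± 1.55 rpm among controls and 2.55 ± 0.669 rpm among EWH libraries, miR-132-5p 7.73 ± 2.25 and 7.85 ± 2.14 rpm, and miR-212-5p 6.49 ± 1.82 and 6.37 ± 1.70 rpm (SD, n = 6 each). On the other side are Mir423 and the erythroid Mir144 and Mir451a. MiR-423-3p averaged 419 ± 59.3 and 385 ± 37.4 rpm and miR-423-5p 160 ± 87.2 and 141 ± 26.6 rpm (SD, n = 6 each; control and EWH). The log2 differences of the tested miRNAs of these 5 hairpins ran from −0.33 (miR-132-3p) to 0.04 (miR-144-5p), and limma called 0 of them.

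Lists of smooth muscle miRNAs, with miR-22 itself left out, place its values among its tissue's own. Contractile smooth muscle miRNAs (miR-143, miR-145, miR-133a, miR-1 and miR-10a) summed to 370634 to 442253 rpm in control and 358086 to 454986 rpm in EWH, highest in EWH 2. Nearly all of that sum was miR-143-3p, which reached 330147 rpm or more in every library, while miR-133a-3p read 2.84 to 7.93 rpm. Of 8 tested members 5 were lower and 3 higher in EWH, with a median log2 difference of −0.09, beside −0.06 for all tested miRNAs. MiR-145-5p averaged 1138 ± 282 rpm among controls and 1006 ± 211 rpm among EWH libraries (SD, n = 6 each). Of 9 tested miRNAs of proliferating smooth muscle (miR-21, miR-221, miR-222, miR-31a, miR-146a and miR-24) 8 were lower and 1 higher, with a median of −0.33. Over all tested miRNAs 182 of 303 were lower. MiR-21-5p averaged 7380 ± 1503 and 5804 ± 836 rpm, and miR-24-3p 6270 ± 603 and 5714 ± 535 rpm (SD, n = 6 each; control and EWH). With Benjamini-Hochberg adjustment, limma and edgeR called 0 members of these lists, where over all tested miRNAs they called 0% and 13.2%. DESeq2, which called 20.8% of the tested, called 1, the muscle miRNA miR-1-3p, at a DESeq2 log2 difference of 1.11 (adjusted p = 0.019). MiR-1-3p, named after its value was seen, averaged 394 ± 238 rpm among controls and 807 ± 273 rpm among EWH libraries (SD, n = 6 each). The more abundant miR-1b, which the list left out, averaged 2497 ± 289 and 2834 ± 744 rpm (SD, n = 6 each). Its log2 difference in limma's fit was 0.15 (SE 0.17), and DESeq2 did not call it.

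Markers of other cell types moved between libraries as well. Cardiac and skeletal muscle miRNAs, tissues where miR-22 is also abundant, summed to 348 to 778 rpm in control and 281 to 440 rpm in EWH, lowest in EWH 2. Of the 4 tested members 2 were higher in EWH (miR-206-3p and miR-486) and 2 lower (miR-499-5p and miR-133b-3p). MiR-486 made up a large part of these sums. It averaged 158 rpm among controls and 162 rpm among EWH libraries, beside 262 and 157 rpm for miR-499-5p. Whether the reads of miR-486 came from muscle or from erythrocytes was not tested. The heart miRNA miR-208a read at most 0.042 rpm (3p) and 0.082 rpm (5p), under the value of 3 reads (0.121 to 0.126 rpm), while miR-499-5p read 119 to 474 rpm. Over all tested miRNAs, 182 of 303 were lower in EWH. Leukocyte miRNAs summed to 87.4 to 231 rpm in control and 103 to 185 rpm in EWH, with 5 of 5 tested members lower in EWH. These were miR-150-5p and both arms of miR-142 and miR-223. Erythrocyte miRNAs summed to 19.0 to 102 rpm and 27.5 to 96.2 rpm, with 2 of 3 lower, and endothelial miRNAs to 3290 to 12305 rpm and 4264 to 6913 rpm, with 2 of 2 lower. Control 1, the highest library in both miR-22 arms, was highest in endothelial and leukocyte miRNAs and lowest in erythrocyte miRNAs. EWH 2, the lowest in both arms, summed to 5817 rpm in endothelial miRNAs, above the EWH median of 5066 rpm.

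Neuron and glia miRNAs summed to 591 to 1394 rpm in control and 668 to 1792 rpm in EWH, with 4 of 6 tested members higher, and were highest in EWH 4, while EWH 2 was the lowest of its group. Epithelium and hepatocyte miRNAs summed to 59.6 to 1648 rpm in control and 151 to 815 rpm in EWH, with 4 of 5 tested members lower. Limma called 0 members of these lists, and edgeR with Benjamini-Hochberg adjustment called 3 of the neuron and glia list, all higher, and 2 of the epithelium and hepatocyte list, both lower. DESeq2 called 4 and 3 of them in the same directions. The neuron and glia calls were arms of miR-9a and miR-338. The most abundant tested member of the neuron and glia list, miR-128-3p, was not called and averaged lower in EWH. MiR-128-3p averaged 770 ± 264 rpm among controls and 683 ± 126 rpm among EWH libraries (SD, n = 6 each). Among the epithelium and hepatocyte calls, miR-200b-3p read 3.58 to 501 rpm in control and 3.54 to 10.2 rpm in EWH, so the groups overlapped. The most abundant tested member of that list, miR-122-5p, was not called and averaged higher in EWH. It averaged 342 ± 365 rpm among controls and 416 ± 275 rpm among EWH libraries (SD, n = 6 each). Over all tested miRNAs edgeR called 13.2% (1.98% lower) and DESeq2 20.8% (5.61% lower). The part of any of these cell types in the level of miR-22 was not tested. EWH 3 and 4 were also left out together, an alternative chosen from earlier results that are not shown here. Without them the log2 difference was −0.30 (SE 0.10) for miR-22-3p and −0.21 (SE 0.14) for miR-22-5p.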

How the data were processed

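The authors deposited 1 table of mature miRNAs in RPM units, per 1000000 reads of a library total of their own; the table is named for TPM, but no length term was found. Dividing by the value of 1 read gave whole reads for 100% of values within 0.01 read. The genome build was rn6 per the submitters' processing notes; for the aligner, counter, annotation and make-up of the total, the entry is "not given in the sources used here". Columns were matched to samples by description. The log2(rpm + 1) values, on which fold changes of low miRNAs are understated, were fitted with limma 3.58.1 (trend, two-sided, R 4.3.3, Benjamini-Hochberg, threshold 0.05) on the 303 of 641 miRNAs that reached 1 rpm in 6 or more of the 12 libraries. Arm ratios were fitted over 67 hairpins. A permutation test planned for the correlation of the arms is not used, since its null of no correlation ignores the shared denominator. EdgeR 4.0.16 and DESeq2 1.42.0 on recovered reads were alternatives, and the procedures were tested on simulated data. RNAfold 2.7.2 folded the hairpin; scipy 1.17.1 gave Wilson intervals, and figures used matplotlib 3.10.9.

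The members and lists were chosen with earlier results of these data known. The rule named both arms, the 5 miRNAs most like each (with and without group means), neighbours in abundance, in arm ratio and on the chromosome, miRNAs sharing a seed, the 3 arm ratios with the smallest p, and up to 3 members of each of 8 lists; not all are printed. Of the 641 identifiers, 581 matched RefSeq's mature names in GRCr8, among them both miR-22 arms.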

Additional observations from a re-analysis of the deposited data

Results flagged for a closer look

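In miR-22-3p, EWH 2 lay far below the other libraries of its group, at 3258 rpm, with the next at 4028 rpm. EWH 2 also had the lowest median-of-ratios factor of all libraries, 0.772. Under that scaling its miR-22-3p read 4220, inside the range of its group. In the lists of other cell types, control 6 lay far above the other controls in summed cardiac and skeletal muscle miRNAs, at 778 rpm. Control 6 did so also in summed epithelium and hepatocyte miRNAs, at 1648 rpm. Control 1 lay far above the other controls in summed endothelial miRNAs, at 12305 rpm. These are 4 among 24 groups of 6 values examined, where chance alone sets apart about 1 in 20.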

How the results depend on the processing

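Both arms stayed lower in EWH in each of the 26 alternatives run for each. The arm ratio kept its sign in all of the 22 alternatives run for it. With a library left out, the log2 difference ran from −0.30 to −0.21 for miR-22-3p, from −0.25 to −0.13 for miR-22-5p and from 0.05 to 0.11 for the ratio, and r between the arms from 0.83 to 0.90. In the other alternatives the ranges were −0.35 to −0.22, −0.28 to −0.15, 0.07 to 0.09 and 0.72 to 0.90. The mean arm ratio ran from −3.48 to −3.44 over all of its alternatives. No alternative but DESeq2 (−0.23 log2, Benjamini-Hochberg adjusted p = 0.016) called miR-22-3p; adjusted p ran from 0.016 to 0.313 over its alternatives.

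The number of miRNAs called, 0 by limma, was 8 after quantile normalization, 40 by edgeR, 63 by DESeq2 and 1 without EWH 3 and 4 together. It was 0 to 24 with a library left out, 24 without EWH 2 and 1 without EWH 4; the cause was not tested. With the replicate number as a block (replicate block) limma called 0, with −0.27 for miR-22-3p and −0.20 for miR-22-5p. Deviations of libraries with the same number correlated at −0.50 to 0.31, over 0.1 for 3 of 6 numbers, and 1 of 12 libraries correlated best with its own number, so numbers were not taken as pairs.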
